A study of Rattus norvegicus with 14 samples.

Results

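Sperm DNA methylation near axon guidance and cadherin adhesion genes was described in Wistar rat males of the founder generation. A region belonged to the set when the gene with the nearest promoter was an Eph receptor or ephrin, a semaphorin or plexin, a Slit, a Robo, a netrin, an Unc5 receptor, a cadherin, a protocadherin, a Celsr, or one of the synaptic families Cntnap, neurexin and Lrrtm; neuropilins, Dcc, Fat cadherins and contactins were searched for as well. This choice by gene symbol gave 98 of 8555 listed regions, at 47 of 3797 genes. Since neighbouring intervals recur between tables, the 98 regions came from 61 separate loci, of which 35 were listed in 1 table, 17 in 2, 7 in 3 and 2 in 4.

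The data are reduced representation bisulfite sequencing (RRBS) libraries, which read cytosine methylation in the CpG-rich fraction of the genome. The 4 groups were ELS-HFD with 3 libraries, ELS with 4, HFD with 4 and Control with 3. ELS rats were kept away from their dams as pups, daily for 3 h, starting at postnatal day 1 and for 16 days, HFD rats were assigned to a high-fat diet when the diets were divided at postnatal day 60, ELS-HFD rats had both, and Control rats had neither. All groups were Wistar males with an elevated plus maze test at postnatal day 57. The labels do not say which rats were littermates, so every p-value over libraries measures only the spread between these samples. The design text filed with the series speaks of amygdala RNA, whereas the labels and tables are of sperm DNA.

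Axon guidance genes encode ligands such as ephrins, semaphorins, Slits and netrins and the receptors that growing axons use to read them (Eph receptors, plexins, Robo proteins and Unc5 proteins). Cadherins and protocadherins are calcium-dependent adhesion proteins, and the clustered gamma protocadherins give neurons surface identities through alternative first exons. Neurexins and Lrrtm proteins bind each other across the synapse. In mature sperm most of the genome is highly methylated, while many CpG-rich promoters carry little methylation. A methylation difference in sperm is not a measurement of expression of these genes.

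Promoter windows from RefSeq on GRCr8, each from 250 bases before to 50 bases after the gene start and written 5′ to 3′ on the gene's strand, are shown for 4 genes to give the CpG setting of the listed promoters. Plxna2 and Pcdhgc3 hold the regions with a q-value under 0.05, the Lrrtm3 promoter was listed in 3 tables, and Celsr2 was the only listed member of its family. Capitals mark each CG. The listed regions have Rnor_6.0 coordinates and were not placed in these windows. By its deposited distance the called Pcdhgc3 region, in the first exon, is 701 bp past the start, beyond the 50 bases that the window covers.
Plxna2 promoter, chr13:108691280-108691579, plus strand: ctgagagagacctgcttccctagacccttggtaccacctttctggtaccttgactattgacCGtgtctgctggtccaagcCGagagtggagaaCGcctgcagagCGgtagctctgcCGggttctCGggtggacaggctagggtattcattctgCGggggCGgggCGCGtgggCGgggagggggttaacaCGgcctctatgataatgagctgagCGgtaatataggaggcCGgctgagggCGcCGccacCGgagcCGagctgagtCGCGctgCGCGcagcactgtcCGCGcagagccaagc
Pcdhgc3 promoter, chr18:29883995-29884294, plus strand: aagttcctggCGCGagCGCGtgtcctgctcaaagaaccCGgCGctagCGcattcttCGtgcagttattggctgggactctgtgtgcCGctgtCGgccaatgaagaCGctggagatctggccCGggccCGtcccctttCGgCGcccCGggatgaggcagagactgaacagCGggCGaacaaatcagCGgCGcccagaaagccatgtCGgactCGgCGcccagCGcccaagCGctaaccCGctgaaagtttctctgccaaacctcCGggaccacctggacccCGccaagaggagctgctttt
Lrrtm3 promoter, chr20:24514054-24514353, plus strand: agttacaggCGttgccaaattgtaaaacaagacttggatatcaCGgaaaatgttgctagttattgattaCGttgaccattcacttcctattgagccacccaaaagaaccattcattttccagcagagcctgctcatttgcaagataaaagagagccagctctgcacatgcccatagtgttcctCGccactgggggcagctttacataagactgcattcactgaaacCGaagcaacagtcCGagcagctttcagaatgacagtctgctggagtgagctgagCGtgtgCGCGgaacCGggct
Celsr2 promoter, chr2:198741333-198741632, minus strand: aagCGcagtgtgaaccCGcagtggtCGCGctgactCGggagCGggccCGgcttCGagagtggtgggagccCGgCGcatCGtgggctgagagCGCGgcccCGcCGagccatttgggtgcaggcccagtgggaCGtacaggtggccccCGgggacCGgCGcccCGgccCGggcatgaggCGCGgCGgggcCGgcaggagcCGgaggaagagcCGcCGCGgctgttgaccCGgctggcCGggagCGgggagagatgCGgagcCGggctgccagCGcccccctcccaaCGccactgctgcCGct

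The CG motif, which reads the same on both strands, occurred 24 times in the Plxna2 window, 28 times in the Pcdhgc3 window, 10 times in the Lrrtm3 window and 37 times in the Celsr2 window. Across 33469 RefSeq promoter windows of the same length the median was 7. As many CG or more were found in 18% of all windows for Plxna2, 12.7% for Pcdhgc3, 41.5% for Lrrtm3 and 4.78% for Celsr2. The motif CCGG, which contains a CG and is the cut site RRBS is commonly built on, occurred 3 times in Plxna2, 4 times in Pcdhgc3, 1 time in Lrrtm3 and 11 times in Celsr2, and 51.4% of all windows hold at least 1. Of the 47 genes, 38 were matched to a RefSeq window.

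The listed regions of this gene set lay mostly in weakly methylated DNA. The mean level was under 10% in 66 of the 98 (67.3%), against 45.8% of all 8555 listed regions. Promoters held 19 of them (19.4% against 14.2% of all listed), exons 35 (35.7% against 24.8%), introns 22 (22.4% against 19.7%) and intergenic DNA 22 (22.4% against 37.6%). The nearest promoter was within 10 kb for 56 (57.1% against 53%). The median size of a difference was 3.18 percentage points, against 3.73 for all listed regions. The plot of level against difference shows the members along the low end of the methylation axis.

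**Figure D1:**
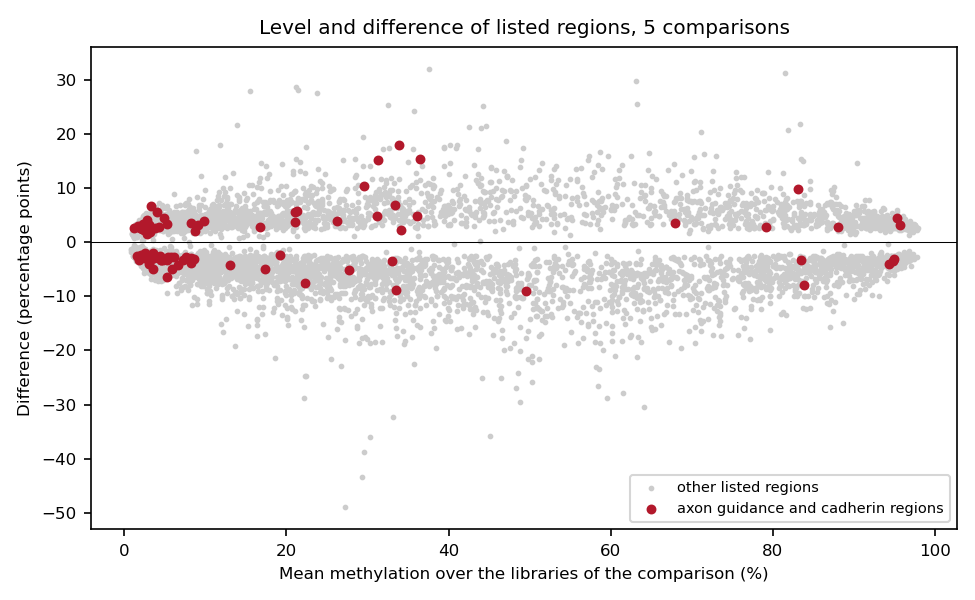
Difference in methylation between the groups (percentage points, first-named group minus second) against mean methylation over the libraries of the comparison (%), for the members and for all listed regions of the 5 comparisons. Most member points (66 of 98) lie under a mean of 10%, and the Ephb1 and Sema3g introns are the members furthest from 0.

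The number of libraries limits precision, and no read depth accompanies the percentages. Of the ELS-HFD libraries, 1 was the lowest of its 3 in 46.6 to 48.5% of all listed regions, and 1 ELS library the lowest of its 4 in 44.3 to 45.7%. Their part in the results was not tested beyond leaving each library out. A region entered the tables only with at least 10 CpGs and a deposited difference of at least 2.5 points, so p-values over libraries are biased towards small values, and counts are read against the same count over all listed regions.

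In HFD against Control, 26 member regions at 26 genes were listed, 16 higher and 10 lower in HFD, where 56.4% of all listed regions were higher. By the q-values of the authors' deposited table, 1 member region was called at the threshold of 0.05 (0.632% of all listed), the Plxna2 promoter, higher in HFD. The HFD and Control libraries did not overlap in 4 member regions (22.6% of all listed), and 6 had an unadjusted limma p under 0.05 (22.8%).

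In ELS against Control, 17 member regions at 14 genes were listed, 9 higher and 8 lower in ELS, where 39.1% of all listed were higher. By the authors' deposited table none was called at 0.05 (0.919% of all listed), the libraries did not overlap in 2 (25.7%), and 4 had an unadjusted limma p under 0.05 (26.9%). In ELS-HFD against Control, 14 regions at 14 genes were listed, 5 higher and 9 lower in ELS-HFD, where 30% of all listed were higher. By the authors' deposited table none was called (0.696%), the libraries did not overlap in 7 (38.7%), and 6 had an unadjusted limma p under 0.05 (27.9%).

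In ELS-HFD against HFD, 22 regions at 19 genes were listed, 8 higher and 14 lower in ELS-HFD, where 26.1% of all listed were higher. The authors' deposited table called 1 region (0.423%), the first exon of Pcdhgc3, higher in ELS-HFD. The libraries did not overlap in 7 (23.9%), and 8 had an unadjusted limma p under 0.05 (25.2%). In ELS-HFD against ELS, 19 regions at 15 genes were listed, 5 higher and 14 lower in ELS-HFD, where 38.1% of all listed were higher. By the authors' deposited table none was called (0.686%), the libraries did not overlap in 8 (24.1%), and 10 had an unadjusted limma p under 0.05 (27.3%). With the offset of 1 on the logit scale, no member region had a Benjamini-Hochberg adjusted limma p under 0.05 in any comparison; of all listed regions 0.107% did in ELS-HFD against Control and 0% in the other 4. The lowest was 0.138 in HFD against Control, 0.0952 in ELS against Control, 0.113 in ELS-HFD against Control, 0.139 in ELS-HFD against HFD and 0.104 in ELS-HFD against ELS. With an offset of 0.1, the Pcdh18 promoter passed in ELS-HFD against ELS, 1 of 3 regions in that table. The comparisons share libraries and are not independent of each other.

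**Figure D2:**
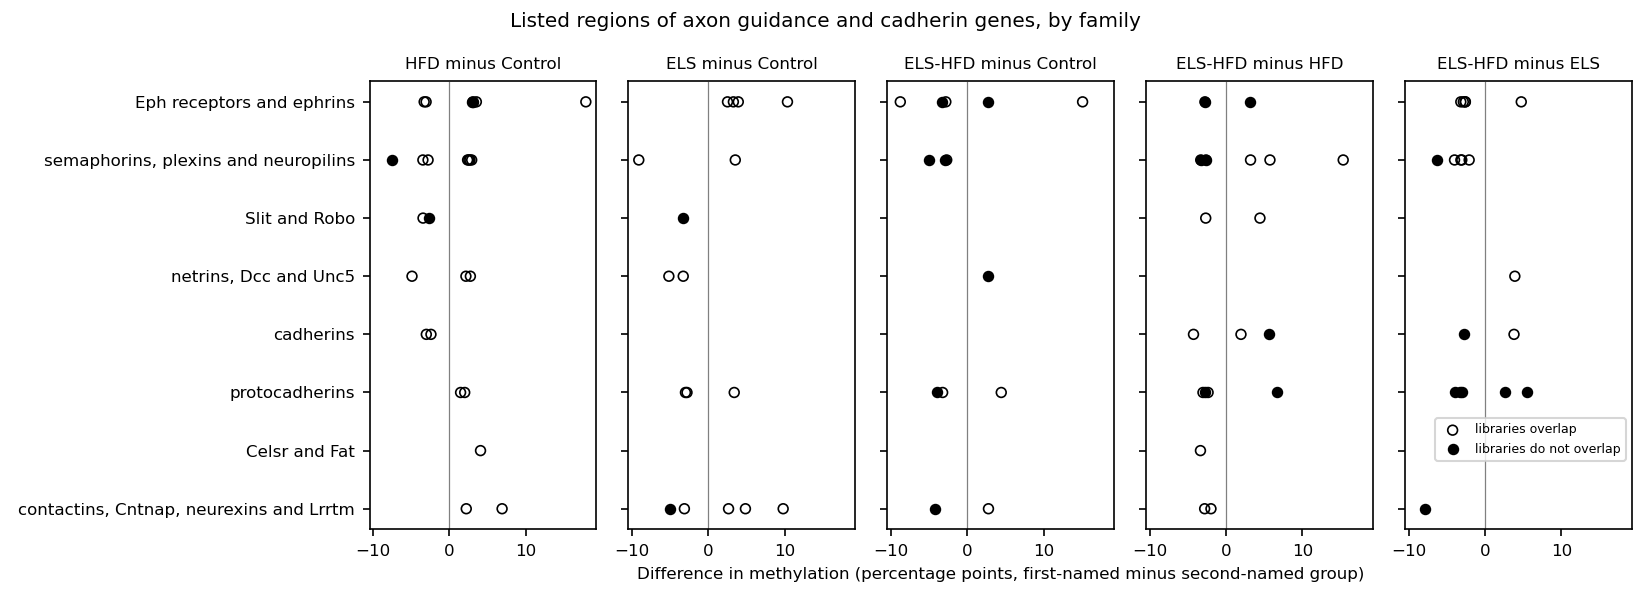
Difference in methylation (percentage points) of each listed region, by gene family (rows) and comparison (panels), first-named group minus second. Filled points mark regions whose libraries do not overlap between the groups and open points those that overlap. Each family holds regions on both sides of 0 over the 5 comparisons, and the 98 points split into 43 higher and 55 lower.

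Eph receptors are tyrosine kinases that bind the membrane-anchored ephrins, and both partners signal. This family gave 24 regions at 13 loci, for 11 of its 22 protein-coding RefSeq genes, 13 higher and 11 lower over the 5 comparisons. Among the ligands, the third of 6 exons of Efna3 (chr2:188638929-188638981, Rnor_6.0, 6241 bp downstream of the start) differed in both comparisons of HFD libraries. It measured 3.24, 3.06, 4.03 and 7.31% in HFD and 0.88, 1.86 and 0.964% in Control, a difference of 3.17 points (SE 1.52). Against the same HFD libraries ELS-HFD had 0.455, 2.03 and 2.27%, a difference of -2.82 points (SE 1.59). The HFD libraries were above all ELS-HFD and all Control libraries. Limma with Benjamini-Hochberg adjustment gave adjusted p = 0.146 for HFD against Control and 0.177 for ELS-HFD against HFD.

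The Efna1 promoter (chr2:188596036-188596297, 56 bp past the start), of a GPI-anchored ephrin, measured 9.7, 17, 7.65 and 7.44% in HFD and 8.95, 8.22 and 4.89% in Control. At nearly the same interval ELS had 13.8, 13.8, 8.62 and 9.78% and Control 9.79, 8.02 and 4.89%. Libraries overlapped in both comparisons. An intergenic region about 29 kb upstream of Efna5, chr9:110254414-110254745, measured 1.17, 2.05 and 1.14% in ELS-HFD and 6.88, 2.23 and 5.1% in Control, with no overlap. The neighbouring interval had 0.606, 1.17 and 1.45% in ELS-HFD against 4.64, 3.53, 1.2 and 7.66% in ELS, where 1 ELS library fell among the ELS-HFD values. HFD was low there as well. Over the longer interval chr9:110254414-110255045 it had 2.62, 0.23, 2.13 and 1.21%, and Control had 6.9, 2.08 and 4.76%, with overlap. In the last exon of Efnb2, a transmembrane ephrin, ELS-HFD had 6.67, 6.32 and 5.79%, HFD had 6.26, 6.65, 4.71 and 5.48%, and Control had 5.43, 11.9 and 9.86%. There 1 Control library was as low as the HFD and ELS-HFD libraries.

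Among the receptors, the largest difference of any member was in the first intron of Ephb1 (chr8:110757059-110757111, 55915 bp past the start), and its spread was as large. Libraries measured 31.2, 17 and 68.2% in ELS-HFD, 55.4, 17, 16.3 and 47.6% in ELS, 53.4, 32.1, 59.6 and 21.2% in HFD, and 31.4, 6.68 and 33% in Control. HFD averaged 41.6 ± 18% and Control 23.7 ± 14.8% (SD, n = 4 and 3), a difference of 17.9 points (SE 10.8). All 4 groups overlapped. The difference of 15.1 points in ELS-HFD against Control was 0.411 points without the ELS-HFD library at 68.2%, and that of 10.4 points in ELS against Control was 1.88 points without the Control library at 6.68%. For HFD against Control limma gave an adjusted p of 0.274 after Benjamini-Hochberg adjustment. Another receptor, Epha7, had 2.4, 6.67, 1.63 and 1.04% in HFD in its first intron (chr5:43603488-43603751), while all 3 Control libraries were at 0. That separation had an adjusted p of 0.138 by limma, with Benjamini-Hochberg adjustment.

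In the first of 18 exons of Epha1 (chr4:71763524-71763564) ELS-HFD had 5.9, 1.15 and 2.68% and Control 0.905, 0.356 and 0.432%, with no overlap. In exon 4 of 17 of Ephb4 (chr12:22410169-22410263) ELS-HFD had 3.0, 6.82 and 4.83% and HFD 1.04, 2.16, 2.76 and 1.14%, again with no overlap. The promoter of Epha2, chr5:159845843-159845900, had 0.435, 0 and 0% in ELS-HFD and 1.41, 0, 4.11 and 5.38% in ELS, where libraries of both groups were at 0. Ephb3 had an intergenic region 20231 bp past its start (chr11:83526372-83526515) at 32.5, 11.7 and 43.2% in ELS-HFD and 34.5, 27 and 52.1% in Control, a difference of -8.76 points (SE 9.85) with overlap. Without the ELS-HFD library at 11.7% that difference was -0.0368 points. Exon 3 of 17 had 2.22, 0 and 1.05% in ELS-HFD, 10.3, 0.909, 3.07 and 0.556% in ELS and 0.645, 0.556 and 0% in Control, where 1 ELS library was far above the others.

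Ephb2, a receptor listed in 3 tables at its second of 15 exons, had a lower mean in ELS-HFD than in ELS or HFD. In the interval chr5:155140218-155140293 ELS-HFD had 3.82, 1.54 and 0.422% and ELS 3.15, 3.67, 4.51 and 7.79%. In a nearly equal interval ELS-HFD had 4.08, 1.72 and 0.125% and HFD 3.62, 2.1, 7.62 and 5.66%. The remaining listing had 3.32, 3.88, 4.48 and 7.8% in ELS and 0.492, 2.96 and 3.57% in Control. Libraries overlapped in all 3. A region 1677 bp upstream of Ephb2 had 65.2, 70.5, 69.3 and 72.9% in HFD and 66, 64.7 and 67.1% in Control, with overlap. Over intervals that overlap by at least 80%, a limma fit of all 14 libraries gave the interaction of separation and diet at Ephb2 a Benjamini-Hochberg adjusted p of 0.376. Its unadjusted p was under 0.05, as for 11.8% of 408 such intervals. On the percent scale limma gave this interaction an unadjusted p of 0.0849.

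Semaphorins are secreted or membrane-bound cues, and plexins are their receptors. This family gave 24 regions at 16 loci, 8 higher and 16 lower, and its 5 regions in ELS-HFD against ELS were lower, 4 of them at Sema5b and 1 at Plxnc1 (38.1% of all listed regions were higher there). The promoter of Plxna2, a receptor for class 6 and, with neuropilins, class 3 semaphorins, was called in HFD against Control. At chr13:113373574-113373628, 23 bp past the start, HFD libraries measured 2.36, 6.16, 0.426 and 4.41% and Control libraries 0.386, 0.293 and 0.517%. Of the HFD libraries 3 were above all Control libraries and 1 lay among them. Means were 3.34 ± 2.49% in HFD and 0.399 ± 0.113% in Control (SD, n = 4 and 3), a difference of 2.94 points (SE 1.68). The q-value in the authors' deposited table was 0.0491, while limma over libraries gave p = 0.0279 and a Benjamini-Hochberg adjusted p of 0.188.

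In ELS-HFD against HFD the Plxna2 promoter was listed over chr13:113373574-113373641. ELS-HFD libraries had 2.43, 2.63 and 3.05% and HFD libraries 5.23, 8.46, 3.1 and 7.18%. Each HFD library read higher over this longer interval than over that listed in HFD against Control. The ELS-HFD values are therefore not set against the Control values. All ELS-HFD libraries were below all HFD libraries, though the closest pair was 3.05% in ELS-HFD and 3.1% in HFD. The difference was -3.29 points (SE 1.67), and the authors' deposited table gives it q = 0.0664. The first intron of Plxna2, chr13:113374539-113374576, had 1.49, 1.77 and 1.49% in ELS-HFD against 3.16, 5.82, 1.97 and 5.96% in HFD, also without overlap. Its neighbour in the family Plxna4 had, at an intergenic region 113435 bp upstream, 6.8, 0.68 and 1.1% in ELS-HFD, 1.58, 6.61, 5.56 and 8.25% in HFD and 2.77, 3.68 and 1.91% in Control. Libraries overlapped there. In intron 4 of Plxnc1, the receptor of a class 7 semaphorin, HFD had 1.53, 11.7, 0 and 0.376% and Control 0.722, 0.376 and 1.42%, so that 1 HFD library carried the difference, which was -0.204 points without it. Farther into the gene, intron 18 of Plxnc1 had 3.46, 5.32 and 1.11% in ELS-HFD and 6.52, 7.65, 2.98 and 8.72% in ELS, with overlap.

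**Figure D3:**
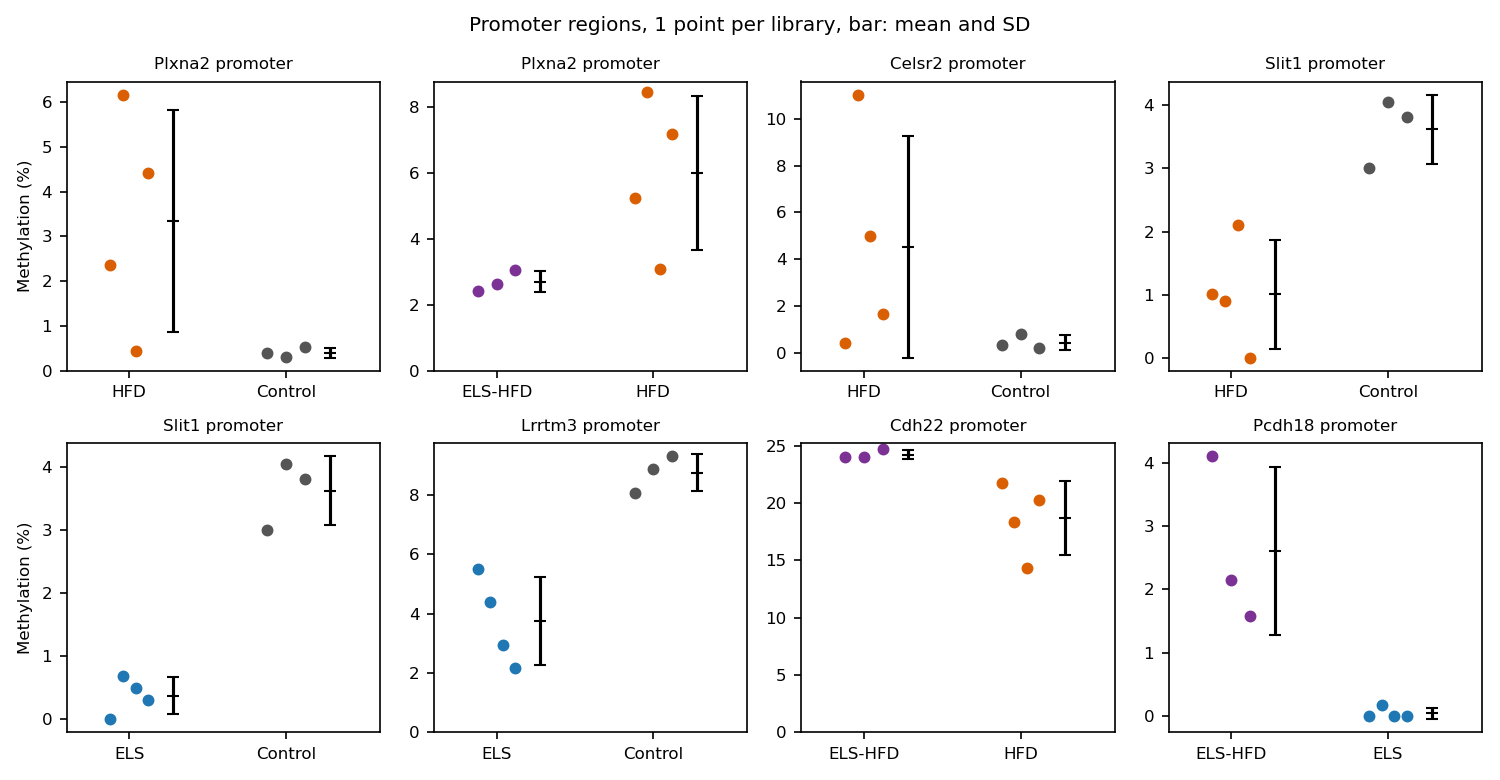
Methylation (%) of each library (points), with the group mean and SD (bars), at listed promoter regions of 6 genes, 1 comparison per panel with its first-named group on the left. At Plxna2 the HFD libraries spread from 0.426 to 6.16% and the Control libraries stay between 0.293 and 0.517%, while at Slit1 the ELS and HFD libraries lie below all Control libraries.

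Sema5b, a transmembrane semaphorin with thrombospondin repeats, was listed 4 times around its intron 5 and exon 6. In ELS-HFD against ELS the interval chr11:68325711-68325843 measured 1.1, 0.478 and 3.42% in ELS-HFD and 11.7, 7.36, 5.93 and 7.09% in ELS. In ELS-HFD against Control an overlapping interval, chr11:68325729-68325860, measured 0.641, 0.478 and 1.79% in ELS-HFD and 3.57, 10.1 and 4.39% in Control. In both the ELS-HFD libraries were below every other library. The differences were -6.36 points (SE 1.82) and -5.05 points (SE 2.14), with adjusted p of 0.104 and 0.113 by limma after Benjamini-Hochberg adjustment. The adjacent exon 6 gave 12.6, 13.4, 5.94 and 7.15% in ELS against 6.67, 7.51 and 4.43% in Control, and 6.19, 4.15, 2.54 and 4.09% in HFD against 5.54, 11.4 and 4.07% in Control, with overlap in both. At 3 other Sema5b sites the libraries overlapped as well: exon 18 had 3.52, 2.38 and 1.26% in ELS-HFD and 5.47, 3.08, 6.18 and 3.16% in ELS, intron 3 had 6.49, 1.84 and 1.3% in ELS-HFD and 9.58, 2.54, 8.71 and 4.2% in ELS, and an intergenic site had 94.5, 85.7 and 95.8% in ELS-HFD and 93.8, 95.6, 95.6 and 99.1% in ELS.

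Among secreted semaphorins, the region 25960 bp upstream of Sema3f (chr8:116495799-116495951) measured 20.8, 19, 15.2 and 21.5% in HFD and 26.8, 23.4 and 29.6% in Control. The HFD libraries were all below the Control libraries, by 7.5 points on average (SE 2.21), with an adjusted p of 0.236 by limma after Benjamini-Hochberg adjustment. In the ELS-HFD against HFD table this region had 25.5, 17.9 and 30.4% in ELS-HFD and 20.8, 19.1, 15.8 and 19.7% in HFD, with overlap. In intron 2 of Sema3g, chr16:7306434-7306512, ELS-HFD had 45.6, 31.5 and 58.5% and HFD 23.1, 39.7, 34.7 and 22%, a difference of 15.3 points (SE 7.09) with overlap. In exon 11 of 16 of Sema3g, highly methylated, ELS-HFD had 98.5, 95.7 and 98.3% and HFD 97, 94.2, 96.4 and 89.7%, also with overlap.

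Membrane semaphorins gave single listings in several comparisons. The Sema4b promoter (chr1:141985599-141986044, 324 bp upstream of the start) had 1.01, 0.478 and 0.462% in ELS-HFD and 1.34, 4.96 and 4.41% in Control, with no overlap. A region 8631 bp past the start of Sema6c had 0, 1.67 and 0% in ELS-HFD against 1.42, 7.51 and 0.769% in Control, with overlap. A region 5282 bp upstream of Sema6b had 39.1, 39, 55.1 and 49.5% in ELS and 48.4, 55.6 and 60.3% in Control, a difference of -9.09 points (SE 4.78) with overlap. A region 423 bp past the start of Sema5a had 3.25, 0.781, 6.35 and 2.7% in HFD and 1.9, 0.699 and 0% in Control, also with overlap. The Sema6c and Sema5a regions were annotated as exons of transcripts other than the nearest one, for which the files give no gene name.

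Slits are secreted repellents and Robo proteins are their receptors. Of 7 RefSeq genes 3 were listed, with 5 regions at 3 loci, and the Slit1 promoter separated both ELS and HFD from Control. At chr1:260992407-260992514, 94 bp upstream of the start, ELS libraries had 0, 0.693, 0.5 and 0.303%, and Control libraries 3.01, 4.05 and 3.81%. At an interval that starts 1 base later, HFD libraries had 1.01, 0.899, 2.11 and 0%, against the same Control values. Every ELS and every HFD library was below every Control library. The difference was -3.25 points for ELS against Control (SE 1.22) and -2.62 points for HFD against Control (SE 1.24), with limma adjusted p of 0.0952 and 0.151 after Benjamini-Hochberg adjustment. Both comparisons use the same 3 Control libraries.

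Slit3 was listed far from its promoter, 117540 bp upstream (chr10:20203327-20203350), in highly methylated DNA. ELS-HFD had 100, 96.3 and 97.2%, HFD had 95.2, 91, 90.8 and 96.7%, and Control had 98.9, 95.2 and 96.4%. Libraries of all 3 groups overlapped. Robo3, a receptor that regulates midline crossing, had an intergenic region 20194 bp upstream with 7.07, 2.06 and 3.41% in ELS-HFD and 2.95, 7.89, 7.79 and 8.79% in HFD. There 1 HFD library lay among the ELS-HFD libraries.

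Netrins guide axons through Dcc and Unc5 receptors, and Unc5 proteins mediate repulsion. Of 11 RefSeq genes 3 were listed, with 7 regions at 5 loci and no promoter among them. In exon 2 of Ntn3 (chr10:13579211-13579256) HFD had 10.5, 16.9, 16.3 and 17.4% and Control 18.6, 24.7 and 17%, with overlap. The intergenic locus 14732 bp upstream of Unc5b was listed in 3 tables. It had 36.3, 19.5 and 29.5% in ELS-HFD and 25.4, 21.6, 26.2 and 25% in ELS, 24.6, 22.1, 29 and 26.2% in ELS and 35.4, 26.7 and 29.7% in Control, and 25.7, 28.9, 41.2 and 44.6% in HFD and 38, 29 and 31.7% in Control. All 3 listings overlapped, and the ELS-HFD against ELS and HFD against Control differences changed direction when 1 library was left out. In the first intron of Unc5b, chr20:30368074-30368300, ELS-HFD had 90.1, 90.0 and 88.1% and Control 87.8, 86.2 and 86.0%, without overlap, a difference of 2.73 points (SE 1.46). Another site in that intron had 79.4, 79.8, 88 and 81.2% in ELS and 86.7, 84.9 and 84.5% in Control, with overlap, as did a region 55397 bp upstream of Unc5a, at 18.2, 16.3, 11.1 and 26% in HFD and 17.3, 14.8 and 13.3% in Control. Without the HFD library at 26% the Unc5a difference was 0.0593 points.

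Classical and related cadherins gave 7 regions at 5 loci, for 4 of 23 RefSeq genes. Cdh22, a cadherin found in brain, was listed 3 times at its promoter. In ELS-HFD against HFD, over chr3:161917335-161917401, the libraries had 24, 24 and 24.7% in ELS-HFD and 21.8, 18.3, 14.3 and 20.3% in HFD. In ELS-HFD against ELS, over chr3:161917257-161917407, they had 23.1, 21.9 and 24.5% in ELS-HFD and 22.9, 18, 19.7 and 16.8% in ELS. In HFD against Control they had 20.7, 18.4, 13.9 and 19.8% in HFD and 23.6, 19.95 and 18.1% in Control. The ELS-HFD libraries were above all HFD libraries, by 5.56 points on average (SE 2.0), and overlapped ELS in 1 library. A second Cdh22 region lies 11702 bp upstream, in an intron of another transcript, and had 9.13, 2.86 and 0.805% in ELS-HFD and 4.94, 1.55, 0.571 and 2.21% in HFD.

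Cdh6, a type II cadherin, had an intergenic region 80074 bp upstream with 0.465, 0.161 and 0% in ELS-HFD and 2.76, 1.01, 2.79 and 5.38% in ELS, without overlap. In an intron of Cdh3, which encodes P-cadherin, HFD had 0, 1.25, 0.909 and 1.11% and Control 10, 0.833 and 0.625%. That difference rests on 1 Control library: without the library at 10% it was 0.0884 points. Intron 3 of Cdh26 had 5.96, 12.6 and 13.5% in ELS-HFD and 9.79, 15.9, 22.7 and 11.4% in HFD, with overlap.

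Protocadherins gave 17 regions at 12 loci, 7 higher and 10 lower, and all 5 regions of this family in ELS-HFD against ELS, 2 of them of Pcdhgc3, were without overlap (24.1% of all listed). The gamma protocadherins accounted for 7 genes, 11 regions and 8 loci, 5 higher and 6 lower. They lie on chromosome 18 within 99.252 kb, each 49 to 996 bp past a start. These genes have similar first exons, so the assignment of reads between them is uncertain, and it was not tested. The plot of the gamma cluster shows every library at these regions in their order on the chromosome.

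**Figure D4:**
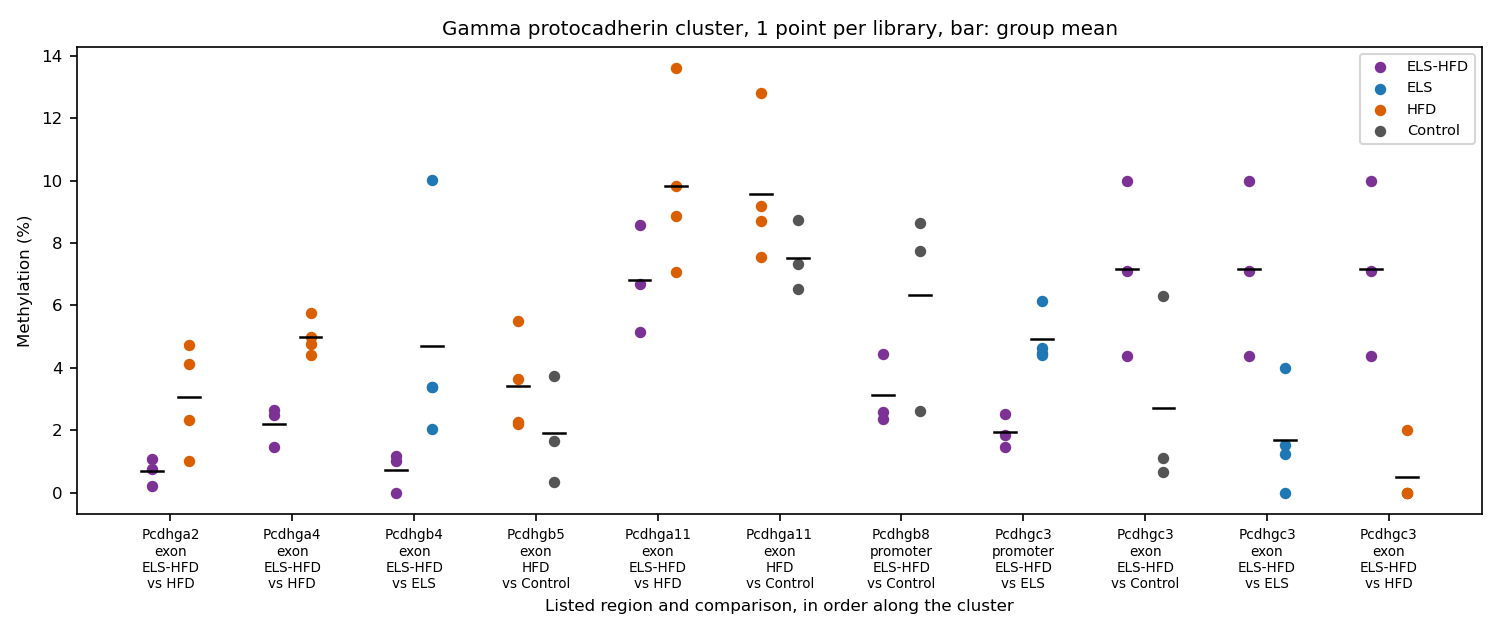
Methylation (%) of each library (points) and the group mean (bars) at the 11 listed regions of the gamma protocadherin genes, ordered along the cluster, with the comparison under each and its first-named group on the left. At the first exon of Pcdhgc3 the ELS-HFD libraries (4.38 to 10%) lie above the HFD libraries (0 to 2%), and at its promoter they lie below the ELS libraries.

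The first of 6 exons of Pcdhgc3 (chr18:30914510-30914576, 701 bp past the start) was the only member region with a q-value under 0.05 in ELS-HFD against HFD. ELS-HFD libraries measured 4.38, 7.1 and 10%, ELS libraries 3.99, 1.24, 1.54 and 0%, HFD libraries 0, 2, 0 and 0%, and Control libraries 6.31, 0.667 and 1.11%. All ELS-HFD libraries were above all ELS and HFD libraries, and 1 Control library lay among them. ELS-HFD averaged 7.16 ± 2.81% and HFD 0.5 ± 1% (SD, n = 3 and 4), a difference of 6.66 points (SE 1.72). The q-value in the authors' deposited table was 0.000929, and limma gave p = 0.000511 with a Benjamini-Hochberg adjusted p of 0.139. The difference was 5.47 points (SE 1.82) in ELS-HFD against ELS and 4.47 points (SE 2.37) in ELS-HFD against Control, with limma adjusted p of 0.104 and 0.178 after Benjamini-Hochberg adjustment.

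Pcdhgc3 was 1 of 3 member regions whose interval was identical in tables that together hold all 4 groups. The interaction of separation and diet was 3.04 on the log2 odds scale (SE 0.883), with an adjusted p of 0.218 by limma with Benjamini-Hochberg adjustment over 222 such regions. Its unadjusted p was under 0.05, as for 9.46% of those regions. Nearer the start, the Pcdhgc3 promoter (chr18:30913861-30913949) ran the other way. It had 1.46, 1.84 and 2.51% in ELS-HFD and 4.65, 4.4, 4.48 and 6.13% in ELS, without overlap, a difference of -2.97 points (SE 1.23).

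**Figure D5:**
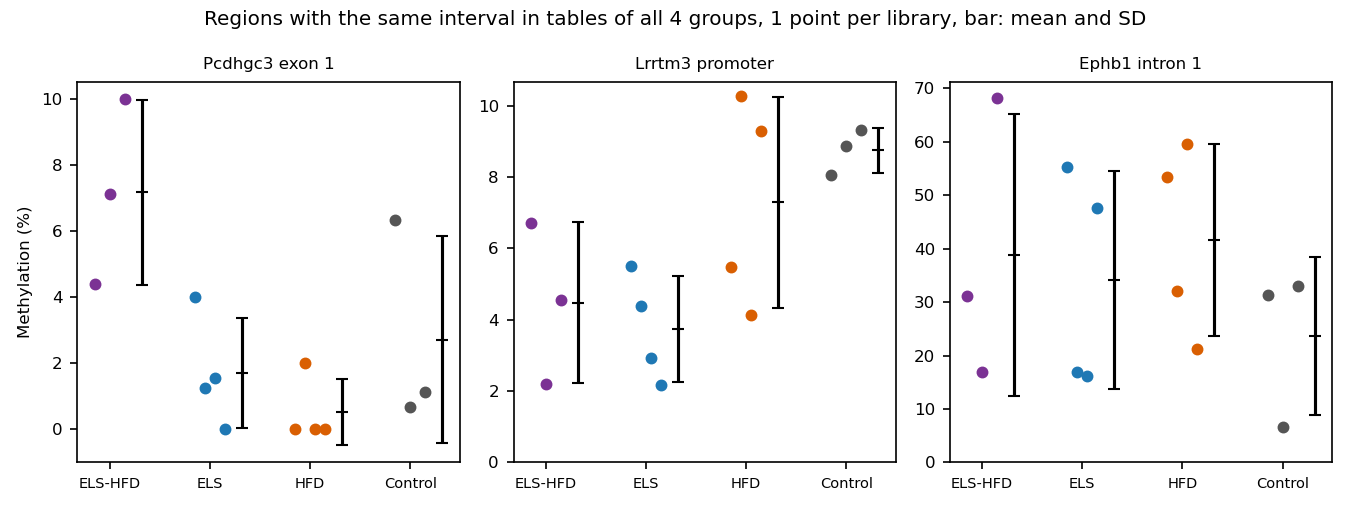
Methylation (%) of each library in the 4 groups at the member regions listed over the same interval in tables that together hold every group, with points for libraries and bars for the group mean and SD. At Pcdhgc3 the ELS-HFD libraries (4.38 to 10%) lie above all ELS and HFD libraries, at Lrrtm3 the Control libraries (8.07 to 9.32%) lie above all ELS and ELS-HFD libraries, and at Ephb1 all groups overlap.

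Other gamma genes were low in both groups compared. Pcdhga4 had 2.5, 2.65 and 1.47% in ELS-HFD and 4.42, 5.75, 4.98 and 4.78% in HFD, without overlap. Pcdhgb4 had 1.16, 1.02 and 0% in ELS-HFD and 3.39, 2.03, 3.38 and 10.02% in ELS, without overlap. Pcdhga2 had 1.09, 0.222 and 0.758% in ELS-HFD and 1.02, 4.11, 4.73 and 2.34% in HFD, with overlap in 1 library of each group.

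Pcdhgb8 and Pcdhga11 overlapped as well. The Pcdhgb8 promoter had 2.35, 2.58 and 4.43% in ELS-HFD and 2.61, 8.65 and 7.74% in Control. Pcdhga11 had 8.59, 6.68 and 5.16% in ELS-HFD and 7.08, 13.6, 9.83 and 8.85% in HFD, and in its other listing 9.2, 12.8, 8.69 and 7.55% in HFD and 7.33, 8.74 and 6.53% in Control. Pcdhgb5 had 2.21, 2.26, 3.65 and 5.49% in HFD and 1.66, 0.35 and 3.73% in Control.

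Outside the cluster, Pcdh18, a delta protocadherin, was nearly unmethylated at its promoter in ELS (chr2:138833747-138834030). ELS-HFD had 4.1, 2.15 and 1.58%, and ELS had 0, 0.185, 0 and 0%. Every ELS-HFD library was above every ELS library, by 2.56 points on average (SE 1.27), with an adjusted p of 0.104 by limma after Benjamini-Hochberg adjustment. An offset of 0.1 in place of 1 gave a limma adjusted p of 0.0231 after Benjamini-Hochberg adjustment, and over 11 alternatives it ranged from 0.0231 to 0.288, under 0.05 in 1 of them. Exon 2 of Pcdh1 had 7.72, 4.09 and 7.06% in ELS-HFD and 9.82, 7.75 and 13.1% in Control, without overlap, and in its listing for ELS against Control 10.4, 4.68, 6.99 and 5.55% in ELS and 10.1, 5.86 and 13.7% in Control, with overlap. Upstream of Pcdh1, 7029 bp from its start, ELS had 0.705, 1.3, 0.558 and 0% and Control 0.614, 2.1 and 7.54%, with overlap. Pcdh9 was assigned to an intergenic region 571157 bp upstream, with 2.39, 4.14 and 3.7% in ELS-HFD, 8.47, 4.59, 6.74 and 7.15% in ELS and 2.38, 2.36 and 5.24% in Control, and the ELS-HFD libraries were below all ELS libraries.

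Celsr2, a seven-pass cadherin of planar cell polarity, was 1 of 7 Celsr and Fat genes in RefSeq, and its promoter was listed in 2 tables. At chr2:211207577-211207634, 140 bp upstream of the start, HFD had 0.427, 11, 4.97 and 1.68% and Control 0.321, 0.779 and 0.188%. Over a slightly longer interval ELS-HFD had 1.47, 1.05 and 1.18% and HFD 0.37, 11.5, 5.1 and 1.45%. The HFD libraries spread over more than 10 points, and 1 lay among the Control libraries. The limma adjusted p was 0.215 for HFD against Control and 0.354 for ELS-HFD against HFD after Benjamini-Hochberg adjustment.

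The synaptic families gave 12 regions at 6 loci, for 5 of 20 RefSeq genes. Lrrtm3, a postsynaptic partner of neurexins, was listed at its promoter (chr20:25990348-25990420, 80 bp past the start) in 3 tables. Libraries measured 6.71, 2.19 and 4.55% in ELS-HFD, 5.51, 4.39, 2.94 and 2.17% in ELS, 5.48, 10.3, 4.14 and 9.29% in HFD, and 8.07, 8.86 and 9.32% in Control. All ELS and ELS-HFD libraries were below all Control libraries, by 5.0 points (SE 1.42) and 4.27 points (SE 1.69) on average, while HFD overlapped both. In the limma fit of the 4 groups the separation term at Lrrtm3 had a Benjamini-Hochberg adjusted p of 0.186.

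Cntnap4, a cell adhesion protein of the neurexin superfamily, was highly methylated in exon 14 of 25. Over chr19:45045136-45045231 ELS-HFD had 70.9, 83.6 and 83.7%, ELS 87.3, 87.1, 87.2 and 87.5%, and Control 65.1, 87.4 and 79.9%. The ELS libraries were close to each other and above all ELS-HFD libraries. In intron 2 of Cntnap4 ELS had 3.84, 2.09, 3.68 and 4.24% and Control 0, 0.233 and 2.16%, with overlap in 1 library of each group. A region 1098 bp past the start of Nrxn2, a presynaptic neurexin, had 2.23, 1.56 and 0.362% in ELS-HFD, 4.52, 3.77, 1.28 and 3.91% in HFD and 2.15, 1.27 and 0% in Control, with overlap. Past the start of Lrrtm4, by 2184 bp, HFD had 31.6, 39.5, 36.4 and 37.9% and Control 31.7, 34.6 and 22%, with overlap. The files annotate the Nrxn2 region as an intron and the Lrrtm4 region as an exon of another transcript than the nearest one, with no gene name given. The region assigned to Lrrtm2 lies in the last exon of Sil1, 49947 bp upstream of Lrrtm2, and had 93.8, 87.8, 95.8 and 97% in ELS and 93.4, 99.5 and 97.2% in Control.

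A list of 75 other genes of guidance and adhesion, outside the rule for members, was examined beside them (among them Rgma, Ptprs, Crmp1, Clstn1 and Lingo1). Of these 17 genes were listed, with 30 regions, 11 higher and 19 lower, and the libraries did not overlap in 8, near the 27.3% of all listed regions. The authors' deposited table called none of them, where 0.423 to 0.919% of all listed regions per table were called.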

How the data were processed

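Sperm DNA of 14 samples in 4 groups was assayed by RRBS. Per the labels' protocols, libraries were made with the Zymo-Seq RRBS kit. Trim Galore, Bismark and Bowtie were used on Rnor_6.0, per the submitters' processing notes, with no versions or roles. The authors deposited 5 tables of regions in the format of metilene, per the file headers, with methylation in percent for each library (0 to 100) and p-values and q-values, the q-value treating CpGs as observations. The count of CpGs per region is also as deposited by the authors. The deposited differences of ELS-HFD with HFD and with ELS run the other way. The differences printed, in percentage points, were recomputed from library means as the first-named group minus the second. In member regions they departed from the deposited difference by at most 1.18 points, with no change of sign. The context and nearest gene were taken as deposited. Table columns carry group codes, which the labels do not explain; they were assigned to the groups from their letters and from the number of columns per code (3 for ELS-HFD, 4 for ELS, 4 for HFD, 3 for Control). Depth is unknown, so no interval that needs it is given.

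Library percentages were transformed as log2((percent + 1)/(100 - percent + 1)) and fitted in limma 3.58.1 (R 4.3.3) over all listed regions of each table, with Benjamini-Hochberg adjustment over that table. Standard errors of differences in points come from the same fit on the percent scale. There limma draws the variance of each region towards that of all listed regions. A printed SE can therefore differ from the spread of the region's own libraries. The limma p-values printed beside these SEs come from the logit scale, not from the percent scale. The interaction of separation and diet was fitted over regions with identical intervals. At identical member intervals repeated between tables, 57 of 64 library values were equal (tolerance 1e-06), and the largest departure was 2.79 points. The fit was tested on simulated, normally distributed values. Those were not selected by their difference, so that test does not cover the bias from the listing of regions. Alternatives were a q-value under 0.01, at least 15 CpGs, a difference of at least 5 points, an offset of 0.1, the percent scale, no sex chromosomes, regions within 10 kb of the promoter, an overlap of 80%, and leaving out each library. Named regions were those with a q-value under 0.05, the 5 largest increases and decreases per comparison, the largest of each family, all promoters, loci in 3 or more tables, and interaction members with p under 0.05; other regions were added to these. The members and lists were chosen with earlier results of these data known.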

Additional observations from a re-analysis of the deposited data

Results flagged for a closer look

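In 7 of 84 groups of 4 libraries at member regions, 1 library stood apart from the other 3 by more than Dixon's critical value of 0.829. That value is passed in about 1 in 20 groups of independent, normally distributed values. Percentages stop at 0, and 3 libraries at 0 with 1 above 0 are always flagged, as at the Pcdhgc3 exon and Pcdh18. Groups also share libraries and loci, so the 7 flagged groups are not read against that rate. In the HFD group of HFD against Control these were Ntn3, with 1 HFD library at 10.5%, and Plxnc1, with 1 HFD library at 11.7%. In the HFD group of ELS-HFD against HFD they were the first exon of Pcdhgc3, with 1 HFD library at 2.0%, and Robo3, with 1 HFD library at 2.95%. In the ELS group of ELS-HFD against ELS they were Pcdhgb4, with 1 ELS library at 10.02%, the promoter of Pcdhgc3, with 1 ELS library at 6.13%, and the promoter of Pcdh18, with 1 ELS library at 0.185%.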

How the results depend on the processing

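No paired analysis was possible because no replicate number stands in the columns of the tables. A q-value under 0.01 or a difference of at least 5 points left 0 called member regions in HFD against Control, and at least 15 CpGs left 0 in ELS-HFD against HFD. Without 1 library at a time both called regions kept their direction. On the percent scale member regions at an unadjusted limma p under 0.05 numbered 1 in HFD against Control and 2 in ELS against Control. They numbered 1 in ELS-HFD against Control, 2 in ELS-HFD against HFD and 4 in ELS-HFD against ELS. Over all listed regions the count fell as well. On the logit scale it was 361, 497, 520, 416 and 437 in that order of comparisons. On the percent scale it was 174, 304, 306, 217 and 222. With at least 15 CpGs the member regions at that p numbered 1, 0, 0, 2 and 1 in the same order of comparisons. All listed regions there numbered 35 of 144, 56 of 188, 68 of 203, 56 of 171 and 51 of 180. With a difference of at least 5 points the member regions numbered 0, 0, 1, 1 and 2. All listed regions there numbered 60 of 427, 155 of 650, 144 of 680, 97 of 514 and 86 of 517. With an offset of 0.1, 1 member region (the Pcdh18 promoter, ELS-HFD against ELS) had a Benjamini-Hochberg adjusted limma p under 0.05, at 0.0231, and under every other alternative and with the offset of 1 no member did. Within 10 kb the member regions at an unadjusted limma p under 0.05 numbered 5 of 16 in HFD against Control. In the same order, the other comparisons had 2 of 10, 4 of 7, 7 of 15 and 6 of 8. The share over all listed regions within 10 kb was not counted. Member regions without overlap numbered 0, 0, 1, 2 and 0 with at least 15 CpGs, and 1, 0, 1, 2 and 3 with a difference of at least 5 points, in that order. Of all listed regions 30 of 144, 51 of 188, 88 of 203, 48 of 171 and 42 of 180 did not overlap with at least 15 CpGs. With at least 5 points 87 of 427, 159 of 650, 251 of 680, 117 of 514 and 94 of 517 did not. Within 10 kb members without overlap numbered, in order, 3 of 16, 2 of 10, 4 of 7, 7 of 15 and 4 of 8. The share without overlap over all listed regions within 10 kb was not counted either. For the scale the cause was not tested. The minimums of 15 CpGs and of 5 points test fewer regions. The limit of 10 kb tests the same regions and only counts fewer members. Intervals overlapping by 80% gave 2 interaction members at an unadjusted limma p under 0.05 (Ephb2 and Pcdhgc3), against 1 with identical intervals. Over all such intervals there were 48 of 408, against 21 of 222 with identical intervals. On the percent scale the 80% overlap gave 1 member (Pcdhgc3), and 37 of 408 over all such intervals.

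Without 1 library, member regions at an unadjusted limma p under 0.05 ranged from 4 to 7 in HFD against Control. The ranges were 3 to 5 in ELS against Control and 2 to 5 in ELS-HFD against Control. They were 5 to 9 in ELS-HFD against HFD and 6 to 10 in ELS-HFD against ELS. Over all listed regions the count at that p moved as well. Its ranges in the same order were 242 to 398, 385 to 454, 385 to 472, 275 to 443 and 346 to 462. Member regions without overlap ranged from 5 to 8, 3 to 6, 7 to 10, 7 to 11 and 8 to 11. Leaving out a library can only keep or raise this count. Over all listed regions it rose as well, in every comparison and for every library left out. These ranges therefore do not show that the separation of the groups is stable. Of 98 differences, 9 changed direction without 1 library, and 64 moved by over 1.5 times. In HFD against Control the ranges in points were -4.60 to 0.0884 for Cdh3, -0.204 to 3.70 for Plxnc1, -8.85 to 2.196 for Sema3g and -0.984 to 5.33 for Unc5b. They were -3.41 to 6.27 for Cntnap4 in ELS-HFD against Control. In ELS-HFD against HFD they were -0.485 to 3.68 for the Cdh22 intron and -5.30 to 0.0661 for Plxnc1. In ELS-HFD against ELS they were -9.97 to 15.6 for Ephb1 and -0.0164 to 8.35 for Unc5b.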
